A study of Mus musculus with 10 samples.

Results

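The genes described here are 10 components of the transcriptional response to cAMP: the bZIP factors *Creb1*, *Crem* and *Atf1*, the CRTC coactivators *Crtc1*, *Crtc2* and *Crtc3*, the acetyltransferase coactivator *Crebbp* (CBP), and the salt-inducible kinases *Sik1*, *Sik2* and *Sik3*. They were chosen by name as a pathway, and their Ensembl identifiers were paired with symbols. All 10 were found among the 53801 genes of the count table, and all 10 passed the filter on low counts, which left 14336 genes to be tested. The kinases are included because they hold the coactivators back, and they are not coactivators themselves. RNA sequencing compared 2 stable lines of AtT20/D16v-F2 cells, a mouse pituitary tumour line of corticotroph origin. Both lines were transduced with lentivirus. The control line expressed a non-targeting shRNA (NT, 5 libraries) and the knockdown line expressed *Creb3l1*-shRNA1 (KD, 5 libraries). Each shRNA was sequenced in 1 stable line, so an effect of the knockdown and a difference between the lines cannot be told apart. The study's methods describe its replicates as biological, but the sources used here do not say how the 5 libraries of a line were cultured. The p-values set the difference between the 2 lines against the spread between libraries within each line. They do not cover how far independently made lines would differ.

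When cAMP rises, protein kinase A phosphorylates CREB, ATF1 and activating forms of CREM, and phosphorylated CREB recruits CBP and its close relative p300. The CRTC proteins form a further switch: SIK kinases phosphorylate them and 14-3-3 proteins then hold them in the cytoplasm, while calcineurin removes the phosphates and protein kinase A restrains the SIKs, so that CRTC enters the nucleus and joins CREB on DNA. In corticotrophs, corticotrophin-releasing hormone acts through cAMP to raise *Pomc* transcription and ACTH secretion.

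Sequences are shown for the shRNA target, which was compared with the transcripts of the 10 genes, and for those promoters of the 10 genes that held a site of a factor in this study. CREB, CREM and ATF1 bind the cAMP response element, the palindrome TGACGTCA, or its shorter site TGACG, and Creb3l1 is known to bind a G-box with the core GACGTG. Promoter windows of 300 bases, from 250 before to 50 after the start site (RefSeq, GRCm38.p6), were found for 7 of the 10 genes, namely *Creb1*, *Atf1*, *Crtc1*, *Crtc3*, *Crebbp*, *Sik2* and *Sik3*. Both strands were searched. The palindrome was in 0 of the 7 windows and in 1.79% of all 32851 windows. The short site was in 3 of the 7 windows and in 20.8% of all, and the G-box core was in 2 of the 7 and in 6.38% of all. A full palindrome also holds the short site, and in *Sik2* the core overlaps a short site on the minus strand of the gene. Matches are in capitals below, with 12 bases on each side of the outermost matches, and each line reads along the strand of its gene.
*Creb3l1*-shRNA1 target: GAGTCGGATTTCCTCAACAAT
*Atf1* promoter, chr15:100227757-100227785, plus strand: gtgaccacgcggTGACGcagcacgccggc
*Crtc3* promoter, chr7:80689059-80689088, minus strand: cttaactttacaGACGTGatataggtgtga
*Sik2* promoter, chr9:51009045-51009086, minus strand: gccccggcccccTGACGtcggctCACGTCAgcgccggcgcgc
*Sik3* promoter, chr9:46012675-46012779, plus strand: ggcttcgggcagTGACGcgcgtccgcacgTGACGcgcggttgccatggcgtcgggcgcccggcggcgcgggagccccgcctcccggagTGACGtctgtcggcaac

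The short site of *Atf1* began 90 bases before its start site. *Sik3* held 3 short sites, which began 133, 116 and 57 bases before its start site. The pair in *Sik2* lay across its start site, and the core in *Crtc3* began 199 bases before it. The windows of *Creb1*, *Crtc1* and *Crebbp* held none of the 3 motifs. The presence of these letters is a description of the windows and not of binding. The shRNA1 target of 21 bases matched the *Creb3l1* transcript in full. The longest run it shared with a transcript of the 10 genes was 9 bases, in *Creb1* and *Crem*, a length that 17.9% of the 14315 tested genes with a transcript sequence reach. *Ep300*, a related gene described below, shared a run of 10 bases, which 4.77% of those genes reach.

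Counts on genes summed to between 17420698 and 21497750 in the NT libraries and between 18866520 and 22205107 in the KD libraries. NT replicate 3 stood apart in that *Gm42418*, a non-coding RNA, made up 4.13% of its counts (0.107% to 0.129% in the other NT libraries). Its TMM scaling factor was 0.953. The targeted gene, *Creb3l1*, was at 3531 to 3864 normalised counts in NT and at 1014 to 1159 in KD, so every library matched its label. Of 8 corticotroph markers 7 were detected, *Avpr1b* being at 0, and their summed level was 152700 to 163900 in NT and 110800 to 117500 in KD. Most of that sum is *Pomc*, the ACTH precursor gene, which was at 126258 to 137531 in NT and 87908 to 95083 in KD, a log2 fold change of -0.51. The study's quantitative PCR, in contrast, found *Pomc* mRNA unchanged in its *Creb3l1* knockdown lines. The other markers of the list differed among themselves, since *Tbx19*, *Pcsk1* and *Nr3c1* were lower in KD and *Neurod1* and *Pitx1* higher (edgeR), while *Crhr1* was not called. *Prl*, *Tshb*, *Pou1f1*, *Fshb*, *Gnrhr*, *Aldh1a2*, *Cdh5* and *Ptprc*, which mark other cell types, were at 0 in all libraries, but other genes of those lists were detected. The summed level of the stem and folliculostellate markers, nearly all *Sox2*, was 114 to 179 in NT and 153 to 199 in KD, and *Sox2* was called higher. That of the endothelial markers, all *Pecam1*, was 10.6 to 18.3 in NT and 4.28 to 7.45 in KD, and *Pecam1* was called lower. The gonadotroph sum, nearly all *Nr5a1*, was 69.8 to 94.1 in NT and 51.2 to 71.3 in KD, the leukocyte sum, all *Cd68*, 33.9 to 51.9 and 24.6 to 38.2, and the melanotroph sum (*Pax7* and *Oacyl*) 12.2 to 29.7 and 8.27 to 13.8. The 4 fibroblast markers summed to 814 to 1153 in NT and 943 to 1681 in KD, nearly all of it from *Col1a1* and *Col1a2*, and neither *Col1a1* nor *Col1a2* was called. The part of any of these markers in the results was not tested.

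The first question was how strongly each gene was expressed. Levels were compared per kilobase of annotated exon, as normalised counts divided by that length, since longer transcripts give more reads. *Crtc2* had the highest level of the 10 genes in the NT line, 553 ± 14.6 (SD, n = 5), at the 85.3 percentile of the tested genes. *Sik3* (317 ± 10.6) and *Sik1* (298 ± 11.5) followed and overlapped each other, and *Atf1* (212 ± 11.4) lay below both in every library. *Crebbp* (132 ± 8.53) and *Crtc1* (130.3 ± 3.37) overlapped each other and lay close to the median of the tested genes, 130.8. *Sik2* (108.8 ± 4.87) and *Creb1* (108.4 ± 2.89) overlapped each other as well. *Crtc3* was at 83.7 ± 4.82, and *Crem* was lowest at 22.9 ± 2.35, at the 17.7 percentile. All these errors are SDs over 5 NT libraries.

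**Figure D1:**
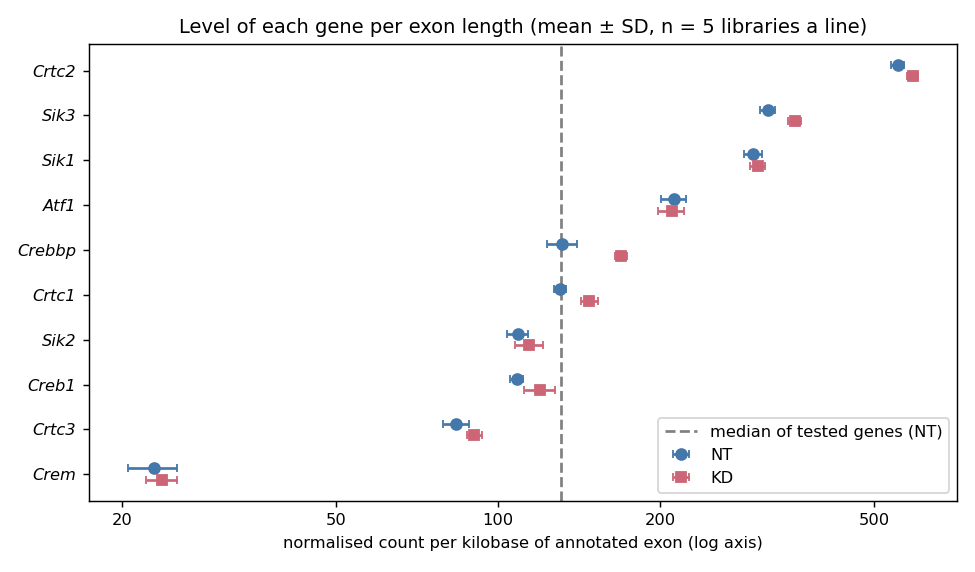
Mean level of each gene in normalised counts per kilobase of annotated exon (horizontal log axis), in NT (circles) and KD (squares), with SD over 5 libraries, and the NT median of the tested genes as a dashed line. *Crtc2* is highest at 553 in NT and 589.8 in KD, and *Crem* lowest at 22.9 and 23.7.

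The order was the same in the KD line except that *Creb1* (119.9 ± 7.89, SD, n = 5) stood above *Sik2* (114.5 ± 7.02, SD, n = 5), a pair that overlapped in both lines. In the KD line *Sik3* and *Sik1* no longer overlapped, at 341 to 364 against 295 to 316, nor did *Crebbp* and *Crtc1*, at 163 to 175 against 139 to 153. The ranks depend on the length used. With the longest transcript in place of all annotated exons, *Crtc2*, *Sik3*, *Sik1* and *Atf1* stayed in the first 4 places and *Crem* in the last, while *Sik2* moved from place 7 to 5 and *Crtc1* from 6 to 9.

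Within each family the levels per kilobase were far from equal. *Atf1* gave 61.8% ± 1.19 (SD, n = 5) of the summed level of the 3 bZIP genes in NT, *Creb1* 31.6% ± 1.25 and *Crem* 6.66% ± 0.492. *Crtc2* gave 72.1% ± 0.654 of the CRTC sum in NT, *Crtc1* 16.98% ± 0.228 and *Crtc3* 10.9% ± 0.572. *Sik3* (43.8% ± 1.02) and *Sik1* (41.2% ± 1.32) shared most of the SIK sum in NT, with 15.0% ± 0.626 from *Sik2*. In KD the same genes led, with 59.4% ± 1.45 for *Atf1*, 71.2% ± 0.686 for *Crtc2* and 46.0% ± 0.771 for *Sik3*. The shares also depend on the length used. Per kilobase of the longest transcript *Atf1*, *Crtc2* and *Sik3* still led in NT, but *Crtc3* (161) stood above *Crtc1* (142).

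The summed level per kilobase of the 3 CRTC genes was 749 to 792 in NT and 809 to 854 in KD, with no overlap, and its mean was 7.90% higher in KD. For the 3 SIK genes the sum was 711 to 752 in NT and 753 to 804 in KD, a mean 6.95% higher, with the lines barely apart. The bZIP sum overlapped, at 328 to 359 in NT and 328 to 379 in KD. No test was run on these sums.

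The second question was which of the genes differed between the lines. *Crebbp*, *Crtc1*, *Sik3* and *Creb1* were higher in KD, by 28.7%, 13.5%, 12.3% and 10.8%, and none of the 10 genes was lower. *Crem*, *Atf1*, *Crtc2*, *Crtc3*, *Sik1* and *Sik2* did not pass the threshold, set at 0.01 for the p-value of the edgeR quasi-likelihood test, adjusted over all 14336 genes by the Benjamini-Hochberg method. The number called, 4 of 10, was close to the background, since 40.7% of all tested genes were called. By direction, 4 of 10 were higher, where 20.6% of all genes were, and 0 were lower, where 20.1% of all genes were. At an unadjusted p under 0.05 edgeR placed 6 of the 10 higher and 0 lower, and DESeq2 called 5 higher and 0 lower at its adjusted threshold of 0.01. The shares of all genes above belong to the adjusted edgeR threshold and are no background for these counts. Without a share of all genes beside them, these counts cannot be read as a shift of the 10 genes. For 3 of the 10 the lines were fully separated, as they were for 36% of all tested genes. In these bulk libraries fewer cells of a type and less RNA per cell cannot be told apart.

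The differences were small. The log2 fold changes (KD over NT) ran from -0.01 to 0.36 with a median of 0.10, and 9 of the 10 were above 0, where the median over all tested genes was -0.0025. The median size was 0.10, against 0.15 for all tested genes. Of the 10 genes 0 reached 1.5-fold, where 1108 of the 14336 tested genes were called at that size or more. The spread between libraries was also small, with a coefficient of variation of 2.36% to 10.3% within a line, where the median over tested genes was 5.21% in NT and 5.74% in KD.

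**Figure D2:**
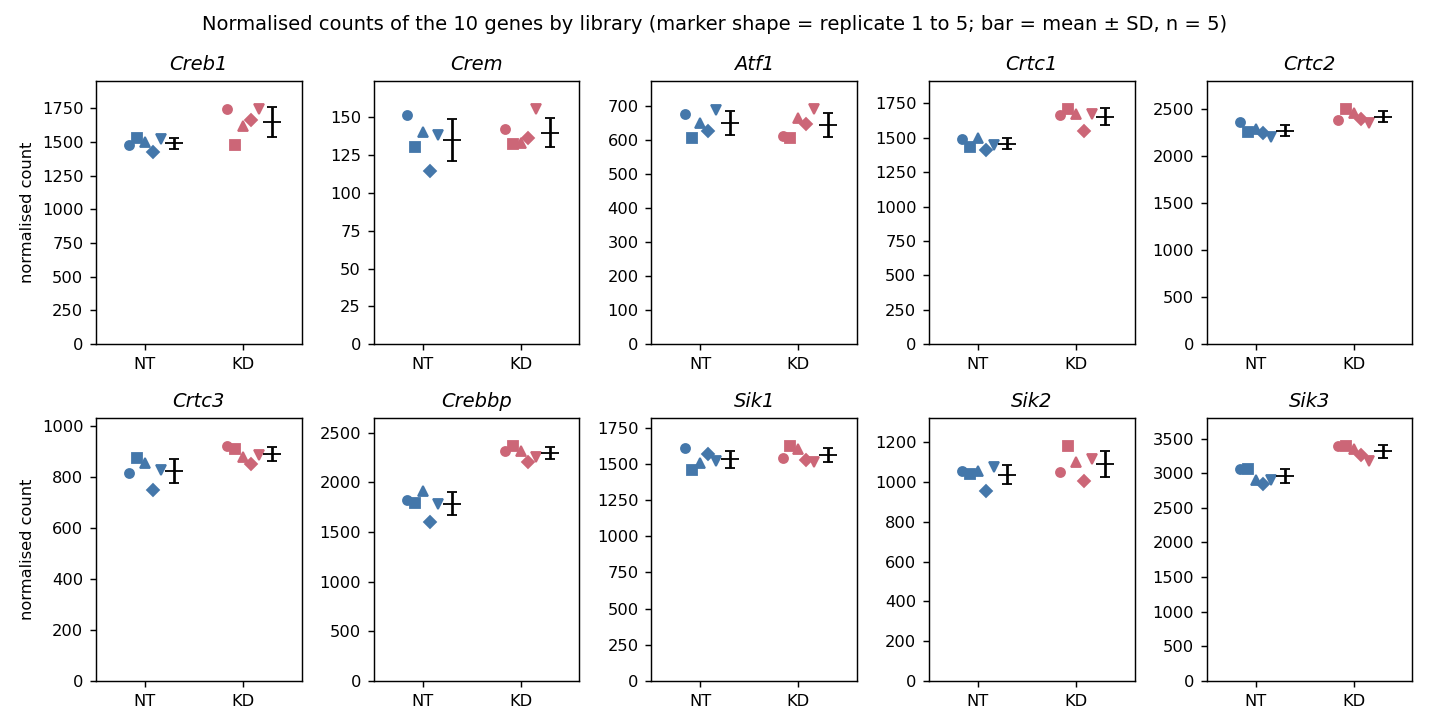
Normalised counts (vertical axis from 0) of the 10 genes in each NT and KD library, with marker shapes for replicates 1 to 5 and bars for the mean ± SD of 5 libraries. The lines separate for *Crtc1*, *Crebbp* and *Sik3*, and a single KD library of *Creb1*, replicate 2 at 1479, falls among the NT libraries.

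Among the bZIP factors, only *Creb1* passed the test. *Creb1* (ENSMUSG00000025958, GRCm38 chr1:64532645-64604548, plus strand) encodes CREB itself. Its normalised count was 1475, 1526, 1498, 1428 and 1520.0 in NT replicates 1 to 5 and 1742, 1479, 1617, 1661 and 1740.3 in KD replicates 1 to 5. KD replicate 2 lay inside the NT range, and the other 4 KD libraries lay above it. On the log2 scale the fold change was 0.15 (standard error, SE, 0.037; adjusted p = 0.000977, edgeR), and the 95% interval of the difference was 5.15% to 16.7%.

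The call of *Creb1* did not hold in every setting. The GC content of its longest transcript was 39.6%, at the 4.99 percentile of the tested genes, and the transcript was 8364 bases long, at the 95.4 percentile. When each library was given offsets for the GC content and length of transcripts, the log2 fold change of *Creb1* was 0.0011 (adjusted p = 0.979, edgeR), so that its call was lost. Without KD replicate 2 it was 0.19. The offsets take GC content and length together, and why the *Creb1* value changed with them was not tested.

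*Crem* (ENSMUSG00000063889, GRCm38 chr18:3266048-3337748, minus strand) encodes activators and, from an internal promoter, the short repressor ICER, which gene counts cannot tell apart. Its normalised count was 115 to 152 in NT, with a median of 139, and 133 to 155 in KD, with a median of 136. The ranges overlapped, the log2 fold change was 0.06 (SE 0.095, adjusted p = 0.66, edgeR), and the 95% interval, -9.04% to 18.7%, was the widest of the 10 genes. *Atf1* (ENSMUSG00000023027, GRCm38 chr15:100227819-100261244, plus strand), whose product pairs with CREB, was at 605 to 688 in NT and 605 to 691 in KD. Its log2 fold change was -0.01 (SE 0.048, adjusted p = 0.848, edgeR), with a 95% interval of -7.31% to 5.97%, and its sign changed with the settings.

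All 3 CRTC genes had positive log2 fold changes, and 1 passed the test. *Crtc1* (ENSMUSG00000003575, GRCm38 chr8:70382355-70439579, minus strand) is the form best known from neurons. Its normalised count was 1494, 1435, 1499, 1413 and 1444 in NT replicates 1 to 5 and 1668, 1707, 1671, 1549 and 1671 in KD replicates 1 to 5. Every KD library was above every NT library, and KD replicate 4 was the lowest of its line. The log2 fold change was 0.18 (SE 0.034, adjusted p = 1.40e-05, edgeR), and the 95% interval was 8.30% to 19.0%. With the offsets it was 0.11 (adjusted p = 0.00216, edgeR).

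*Crtc2* (ENSMUSG00000027936, GRCm38 chr3:90254163-90264125, plus strand), the form known for the fasting response of liver and the most abundant here, lay just outside the threshold. Its normalised count was 2357, 2254, 2284, 2238 and 2196 in NT replicates 1 to 5 and 2382, 2494, 2452, 2392 and 2353 in KD replicates 1 to 5. The ranges overlapped only in that KD replicate 5 was just under NT replicate 1. The log2 fold change was 0.09 (SE 0.030, adjusted p = 0.0105, edgeR), and the 95% interval was 2.14% to 11.2%. It passed in 5 of 19 other settings, among them DESeq2 (adjusted p = 0.00906) and the offsets, where the log2 fold change was 0.15 (adjusted p = 8.54e-06, edgeR).

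*Crtc3* (ENSMUSG00000030527, GRCm38 chr7:80586627-80688877, minus strand) was at 750.2 to 873 in NT, with a median of 827, and at 851 to 922 in KD, with a median of 886. The ranges overlapped, and the log2 fold change, 0.11 (SE 0.043), missed the threshold (edgeR, adjusted p = 0.0267).

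*Crebbp* (ENSMUSG00000022521, GRCm38 chr16:4081328-4213997, minus strand) had the largest difference of the 10 genes. Its normalised count was 1824, 1797, 1915, 1598 and 1787 in NT replicates 1 to 5 and 2319.9, 2367, 2321, 2208 and 2254 in KD replicates 1 to 5. The lowest KD library was above the highest NT library, and NT replicate 4 was the lowest of its line. The log2 fold change was 0.36 (SE 0.036, adjusted p = 4.46e-11, edgeR), and the 95% interval was 22.4% to 35.3%. It was 0.27 with the offsets and 0.33 without NT replicate 4, and passed the threshold in all 19 other settings.

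The related coactivator p300 is encoded by *Ep300* (ENSMUSG00000055024), which is not among the 10 genes. Its normalised count was 2256, 2221, 2253, 2072 and 2228 in NT replicates 1 to 5 and 2478, 2619, 2472, 2273 and 2477 in KD replicates 1 to 5. The lines did not overlap, and the log2 fold change was 0.16 (SE 0.034, adjusted p = 0.000112, edgeR). With the offsets it was 0.07 and did not pass (adjusted p = 0.044, edgeR).

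Of the kinases, only *Sik3* passed the test. *Sik3* (ENSMUSG00000034135, GRCm38 chr9:46012820-46224194, plus strand) was at 3057, 3061, 2906, 2845 and 2904 normalised counts in NT replicates 1 to 5. In KD replicates 1 to 5 it was at 3391, 3393, 3355, 3269 and 3179.8. Every KD library was above every NT library. The log2 fold change was 0.17 (SE 0.029, adjusted p = 5.40e-06, edgeR), and the 95% interval was 7.82% to 16.9%. With the offsets it was 0.13 (adjusted p = 9.87e-06, edgeR).

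*Sik1* (ENSMUSG00000024042, GRCm38 chr17:31844250-31855804, minus strand), the member of the family whose transcription is itself induced by cAMP and CREB, was at 1455 to 1609 in NT and 1512 to 1624 in KD. The ranges overlapped, with a log2 fold change of 0.03 (SE 0.034, adjusted p = 0.555, edgeR). The 95% interval was -2.92% to 6.80%, and the log2 fold change ran from 0.01 (without NT replicate 2) to 0.05 (without NT replicate 1) in the other settings. *Sik2* (ENSMUSG00000037112, GRCm38 chr9:50892801-51009073, minus strand), a kinase of the CRTC proteins in many tissues, was at 958 to 1078 in NT and 1005 to 1183 in KD. Its log2 fold change was 0.07 (SE 0.042, adjusted p = 0.15, edgeR). It was 0.02 with the offsets, 0.04 without NT replicate 4, 0.05 without KD replicate 2 and 0.10 without KD replicate 4, and it missed the threshold in all 19 other settings. Its exons share 1429 bases, 15% of their length, with *Ppp2r1b* on the opposite strand, which had a mean of 1189.6 counts a library. The kit marked strand, but the strand setting of the counting is not given in the sources used here, so reads of the 2 genes may not be told apart in that stretch.

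**Figure D3:**
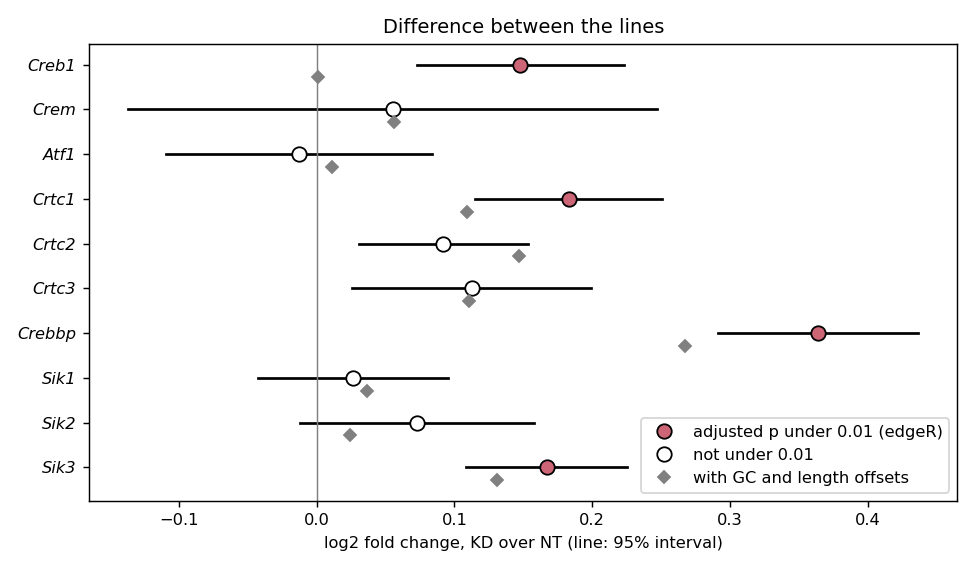
Log2 fold change of each gene, KD over NT (horizontal axis), with its 95% interval from edgeR, filled where the adjusted p was under 0.01, and grey diamonds for the value with the GC and length offsets. *Crebbp* lies farthest to the right at 0.36, and the diamond of *Creb1* lies at 0.0011.

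The libraries did not contribute evenly. NT replicate 4 had the lowest normalised count of its line for 7 of the 10 genes, where it was lowest for 21.7% of all tested genes. KD replicate 2 was the highest of its line for 6 of the 10, where it was highest for 29.2% of all. Without NT replicate 4, 4 of the 10 genes were again called by edgeR, *Crebbp* at a log2 fold change of 0.33, *Crtc1* at 0.17, *Sik3* at 0.15 and *Creb1* at 0.13. The cause of this ordering was not tested.

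The third question was whether genes of a family changed by different amounts. For 10 pairs the log2 ratio of the 2 genes within each library, which does not depend on the scaling of libraries, was compared between the lines by a two-sided exact permutation test over all arrangements of the libraries. After Benjamini-Hochberg adjustment over the 10 pairs, 0 passed the threshold of 0.05. Before adjustment 4 had a p under 0.05. The smallest p that 5 libraries against 5 allow is 0.0079, and a single pair at that value has an adjusted p of 0.079, so that a lone pair could not pass.

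*Crebbp* and *Ep300* were the clearest pair. The log2 ratio of *Crebbp* to *Ep300* was -0.37 to -0.23 in NT and -0.15 to -0.04 in KD, with no overlap. It was higher in KD by 0.21, at the smallest p the exact permutation test allows (p = 0.0079, adjusted p = 0.079).

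The log2 ratio of *Creb1* to *Atf1* was 1.20 ± 0.083 (SD, n = 5) in NT and 1.35 ± 0.091 (SD, n = 5) in KD, a difference of 0.16 (exact permutation p = 0.0317, adjusted p = 0.0794). Within this pair NT replicate 2, at 1.33, lay inside the KD range. The ratio of *Crtc1* to *Crtc2* was higher in KD by 0.09 (exact permutation p = 0.0238, adjusted p = 0.0794), and KD replicate 4 lay inside the NT range. The ratio of *Sik1* to *Sik3* was lower in KD, with a difference of -0.14 (exact permutation p = 0.0317, adjusted p = 0.0794), and NT replicate 2 lay inside the KD range.

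For the other 6 pairs the differences in log2 ratio ran from -0.10 (*Sik2* to *Sik3*) to 0.09 (*Creb1* to *Crem*), with adjusted p from 0.172 to 0.667 in the exact permutation test. Single libraries decided whether any pair passed. Without NT replicate 2, 3 pairs did (*Creb1* to *Atf1*, *Sik1* to *Sik3* and *Crebbp* to *Ep300*, each with an adjusted exact permutation p of 0.0265), and without KD replicate 4, 2 did (*Crtc1* to *Crtc2* and *Crebbp* to *Ep300*, each at 0.0397).

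**Figure D4:**
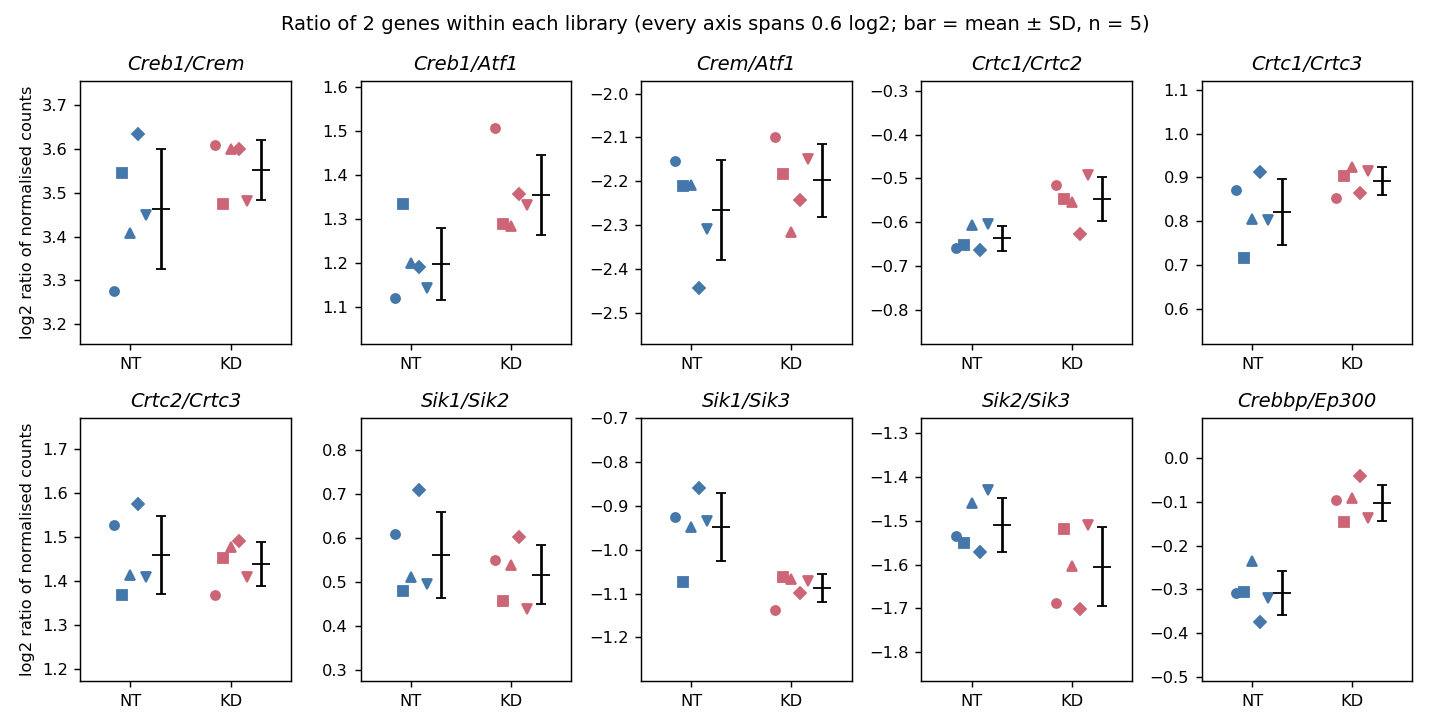
Log2 ratio of the normalised counts of 2 genes in each NT and KD library (vertical axes of equal span, not starting at 0), with bars for the mean ± SD of 5 libraries. The lines separate for *Crebbp* to *Ep300*, where the NT libraries end at -0.23 and the KD libraries begin at -0.15, and overlap in the other 9 panels.

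The last question was how the genes around these 10 compared. Across 8 lists with 86 genes, 77 were tested and 42 passed the same edgeR threshold, 26 higher in KD and 16 lower. Of all tested genes 40.7% passed, 20.6% higher and 20.1% lower, and these shares are the background for each list below. They do not apply to list counts at an unadjusted p or with DESeq2. Those counts have no share of all genes beside them and cannot be read as a direction of a list. The median log2 fold change of the 77 list genes was 0.05. The median size was 0.18, against 0.10 for the 10 genes themselves and 0.15 for all tested genes.

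Other bZIP factors of the CREB and ATF families rose or did not pass, with 2 of 5 tested genes higher and 0 lower in edgeR (3 and 0 at an unadjusted p under 0.05, and 3 and 0 with DESeq2). *Atf7* had a log2 fold change of 0.46 (625 ± 34.1 to 857 ± 46.5 normalised counts, SD, n = 5), and *Crebzf* one of 0.21. Nuclear cofactors moved both ways, with 3 of 8 higher and 3 lower. *Nono*, which works with CRTC at CREB targets, rose by 0.68 on the log2 scale (8521 ± 267 to 13664 ± 244, SD, n = 5), and *Taf4*, a subunit of the general factor TFIID, by 0.19. *Carm1*, a methyltransferase that acts on CBP and p300, fell by 0.31 on the log2 scale, and *Lmo4*, a LIM-only cofactor, fell by 0.20 (log2 fold change -0.13 with the offsets).

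Kinases that phosphorylate CREB also moved both ways, with 3 of 13 higher and 3 lower. *Prkacb*, a catalytic subunit of protein kinase A, rose from 2983 ± 83.0 to 4212 ± 78.8 (normalised counts, SD, n = 5), with a log2 fold change of 0.50, and *Camk2b* rose by 0.19. *Prkaca*, the other catalytic subunit, had a log2 fold change of 0.01 (adjusted p = 0.832, edgeR). *Camk4*, the nuclear calcium and calmodulin kinase of CREB, fell from 1013 ± 23.5 to 572 ± 18.8 (SD, n = 5), with a log2 fold change of -0.83, and the RSK gene *Rps6ka1* had one of -0.58. *Prkaca* was named after its value was seen, as the partner of *Prkacb*.

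On the CRTC switch, 4 of 11 calcineurin and 14-3-3 genes were higher and 1 was lower. *Ppp3ca*, a catalytic subunit of calcineurin, rose from 1227 ± 35.0 to 2634 ± 98.8 (normalised counts, SD, n = 5), with a log2 fold change of 1.10 (SE 0.033). The 14-3-3 gene *Ywhae* rose by 0.39, and *Ywhag* had a log2 fold change of -0.07, a call that was lost in 13 of 19 other settings. Of the LKB1 complex, which activates the SIKs, 0 of 5 genes were higher and 1 was lower in edgeR, *Cab39l* with a log2 fold change of -0.30. At an unadjusted p under 0.05 there were 2 higher and 2 lower, and DESeq2 called 1 in each direction.

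Among the SIK relatives of the AMPK family, 5 of 11 were higher and 1 was lower. *Snrk* rose from 2211 ± 55.5 to 5559.5 ± 145 (normalised counts, SD, n = 5), with a log2 fold change of 1.33, and the neuronal polarity kinase *Brsk1* had one of 0.48. *Nuak1* had one of -0.28, a call lost without NT replicate 1. Of the class IIa HDAC genes, whose products the SIKs also keep in the cytoplasm, 2 of 4 were higher, *Hdac9* with a log2 fold change of 0.58 and *Hdac7* with one of 0.56, and 0 were lower in edgeR (1 at an unadjusted p under 0.05, and 0 with DESeq2).

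Known target genes of cAMP and CREB did not move in a single direction. Of 28 listed, 20 were tested, 7 were higher and 7 were lower, with a median log2 fold change of 0.02. Among all tested genes 20.6% were higher and 20.1% were lower. *Scg2*, a granin, had a log2 fold change of 0.91 and *Rasd1*, a small G protein gene, one of 0.50. *Gem*, a small GTPase gene, had one of -0.72 and *Vgf*, a secreted neuropeptide precursor, one of -0.48. Of the 28, 5 (*Nr4a1*, *Scg2*, *Rasd1*, *Vgf* and *Pcsk1*) are on the study's list of genes selected in part for differing between these libraries. All 5 are among the 14 called, so neither their calls nor their directions are independent evidence. The 7 higher and 7 lower include these 5, which makes the shares of all genes only a rough background here. *Pck1*, *Sst*, *Crh* and *Areg* were at 0 in every library, and 4 others had too few counts to be tested. *Th*, the tyrosine hydroxylase gene, was named after its values were seen. It was at 0 to 3.77 normalised counts in NT and 17.02 to 19.9 in KD, so that its log2 fold change of 3.55 rests on very few NT reads.

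**Figure D5:**
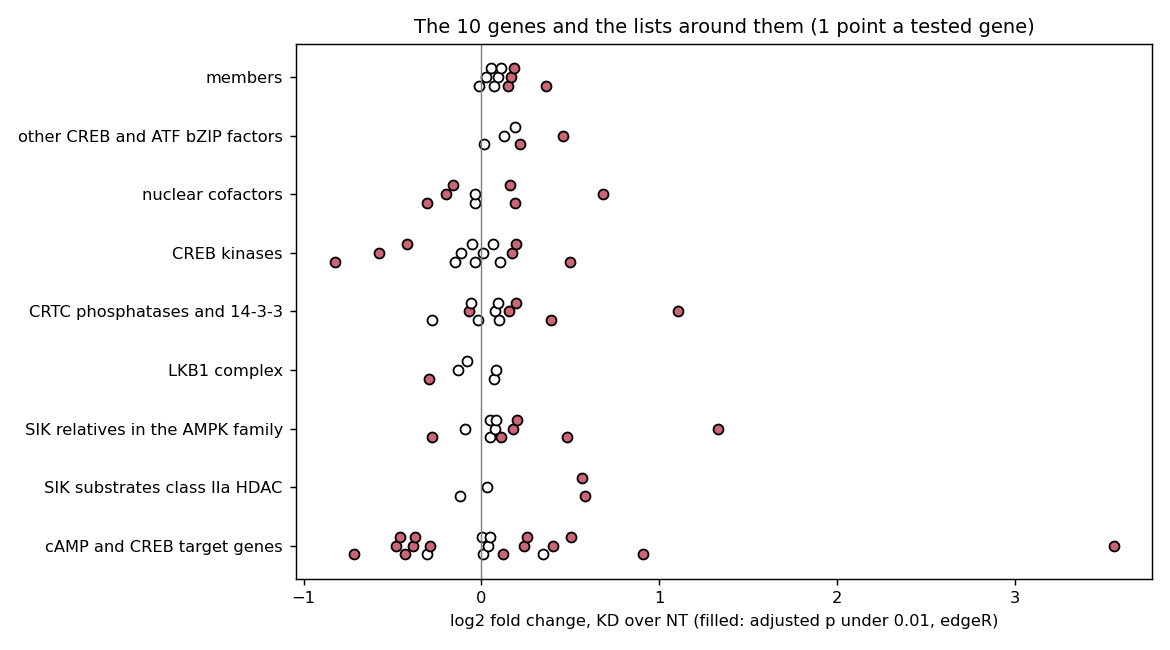
Log2 fold change, KD over NT (horizontal axis), of every tested gene in the 10 genes and the 8 lists around them, 1 point a gene, filled where edgeR's adjusted p was under 0.01. The 10 genes lie between -0.01 and 0.36, while single list genes reach -0.83 (*Camk4*), 1.33 (*Snrk*) and 3.55 (*Th*, at very few reads).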

How the data were processed

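Stable AtT20 lines with a non-targeting shRNA (5 libraries) or *Creb3l1*-shRNA1 (5) were measured by poly(A) RNA sequencing with a stranded kit. The labels gave each library its line and number. Alignment by the authors used STAR and the GRCm38 assembly, featureCounts then assigned reads to genes, and the deposited values are raw counts with no normalisation. The strand setting is not given in the sources used here.

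R 4.3.3, edgeR 4.0.16 and limma 3.58.1 were used. filterByExpr kept 14336 of 53801 genes, and normalisation was by TMM. A quasi-likelihood test with a robust prior compared the lines without covariates, with Benjamini-Hochberg adjustment over all genes tested and a threshold of 0.01 as in the study. Standard errors and 95% intervals come from this test. A normalised count is a count rescaled to the mean effective library size. Symbols were paired with 53620 identifiers. Exon lengths were taken from a GENCODE annotation of the same assembly, and promoter windows from RefSeq. Log2 ratios of pairs used normalised counts plus 0.5. Totals of 17420698 to 22205107 counts leave the largest counting error in genes with few reads. No library pair of a line agreed within counting noise.

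The genes, lists and tests were chosen with earlier results of these data known. The genes named are the 10 members, *Ep300*, *Creb3l1*, *Pomc* and, per list, up to 2 of the largest increases and 2 of the largest decreases among called genes whose mean normalised count was 100 or more. *Th* and *Prkaca* were added after their values were seen. The alternatives were DESeq2 1.42.0, RLE size factors, library totals, no filter, a minimum of 10 counts in all libraries, a replicate block, removal of *Gm42418*, GC and length offsets (splines with 5 degrees of freedom), a threshold of 0.05, at least 1.5-fold, raw counts plus 5 for the ratios, and each library left out. A fit without the robust prior was added after the data were seen. The scripts were tested on simulated data. Protein sequences were not used here.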

Additional observations from a re-analysis of the deposited data

Results flagged for a closer look

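Dixon's ratio, the distance of an extreme library to its neighbour over the range of its line, was above 0.71 in 4 of 72 sets of 5 values. Chance alone puts about 1 in 20 there, or 3.6. *Crtc1* was at 1549 normalised counts in KD replicate 4, below the 1668 to 1707 of the other KD libraries. *Sik2* was at 957.8 in NT replicate 4, below the 1044 to 1078 of the other NT libraries. *Ep300* was at 2072 in NT replicate 4, below 2221 to 2256. *Rasd1* was at 127.1 in NT replicate 3, above 94.3 to 101.4.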

How the results depend on the processing

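The number of the 10 genes called was 4 and stayed between 4 and 6 in the other settings, except at a minimum change of 1.5-fold. That minimum left 0, with 0 higher, where 1108 of all 14336 tested genes were called. Of the 77 tested list genes 42 were called, 26 higher and 16 lower. At 1.5-fold or more 7 list genes were called, 5 higher and 2 lower. The shares of all genes given earlier belong to the main fit and are no background for counts in other settings. Across the fits that left out 1 library 4 to 5 of the 10 genes were called (all higher, 0 lower). Of the list genes 39 to 44 were called in these fits, 24 to 27 higher and 14 to 17 lower. The number of pairs that passed was 0, and 0 to 3 across those fits. The log2 fold change of *Atf1*, -0.01, became 0.011 with the GC and length offsets, 0.00496 without NT replicate 1, 0.0126 without NT replicate 5, 0.0063 without KD replicate 1 and 0.0101 without KD replicate 2. That of *Crem* became -0.0015 without NT replicate 4, and the difference in the ratio of *Crtc2* to *Crtc3* became 0.0096 without NT replicate 4. None of these 3 passed the threshold in any setting. Across the fits that left out 1 library these differences ran from -0.037 to 0.0126, from -0.0015 to 0.104 and from -0.042 to 0.0096. The cause was not tested. *Crtc2* passed with DESeq2, the block, the offsets, without NT replicate 1 and without KD replicate 5. *Creb1* and *Ep300* lost their calls with the offsets.

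The replicate numbers did not pair the libraries. Deviations of same-numbered libraries from their line's mean correlated at -0.062 to 0.038. With the replicate number as a block 5 of the 10 genes and 43 list genes were called, and 0 pairs passed. The share of all genes called with the block is not given here. The blocked test of the pairs flips the signs of the differences between same-numbered libraries. With 5 such differences it cannot give a p under 0.05, so no pair could have passed.

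Depth limited *Crem* most, with 115 to 171 counts in a library and a standard error of 0.095 on the log2 scale. Gene counts hold no isoforms, protein or phosphorylation state, through which this pathway is largely regulated. The planned search of protein sequences was not run.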
